A study of Arabidopsis thaliana with 6 samples.

Results

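The 6 genes described here make up the DREB1 (A-1) group of the AP2/ERF transcription factors of Arabidopsis thaliana, the thale cress: CBF1 (AT4G25490), CBF2 (AT4G25470), CBF3 (AT4G25480, DREB1A in the annotation), CBF4 (AT5G51990), DDF1 (AT1G12610) and DDF2 (AT1G63030). They were taken by locus from a table of 32948 genes, and all 6 were found in it. Messenger RNA was sequenced from seedlings of Col-0, the wild type, and of a mutant, cnd1-3, in 3 libraries each. By the series title, CND1 concerns genome stability in nucleus and chloroplast. The sources used here do not give the nature of the cnd1-3 allele, the age of the seedlings or their growth conditions, and name no treatment for either genotype. The genes were chosen by their measured FPKM difference between cnd1-3 and Col-0, so their levels are given as a description, without a test. The labels do not say whether replicates were grown apart, so the p-values given for other genes measure the spread between these samples, which may be technical.

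CBF proteins bind the C-repeat, or dehydration-responsive element, in the promoters of cold-regulated genes and switch those genes on. In plants kept warm their transcripts are scarce, and they rise within minutes of a chill, with the time of day gating the response. They also respond quickly to touch, wounding and calcium signals. CBF4 is better known for its response to drought and abscisic acid. DDF1 and DDF2 were named for the dwarfing and late flowering seen when DDF1 is overexpressed, an effect tied to gibberellin breakdown.

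CBF1, CBF2 and CBF3 stand in tandem on the minus strand of chromosome 4, within 7747 bases, in the TAIR10.1 annotation. CBF2 runs from 13015250 to 13016235, CBF3 from 13018010 to 13019400 and CBF1 from 13021780 to 13022996. CBF4 lies on chromosome 5 (21116877 to 21117860), and DDF1 (4289883 to 4291017) and DDF2 (23367394 to 23368416) lie on chromosome 1. Each coding sequence is a single uninterrupted exon stretch, of 642 bases in CBF1, 651 in CBF2, 651 in CBF3, 675 in CBF4, 630 in DDF1 and 546 in DDF2. The coding sequences of CBF1 and CBF2 were identical at 87.5% of 642 aligned positions, those of CBF1 and CBF3 at 87.3% of 638, and those of CBF2 and CBF3 at 87.5% of 648. DDF1 and DDF2 were identical at 79.8% of 545 positions, while CBF4 shared 73.3% with CBF1. The most alike stretch of 120 bases in the 3 tandem genes, within the coding sequence, is shown because it is where reads of the copies are hardest to tell apart. Capitals mark the 13 positions at which the copies are not all the same. The stretches lie at chr4:13022341-13022460 (CBF1), chr4:13015856-13015975 (CBF2) and chr4:13018773-13018892 (CBF3), read from the minus strand of the RefSeq TAIR10.1 genome.
CBF1: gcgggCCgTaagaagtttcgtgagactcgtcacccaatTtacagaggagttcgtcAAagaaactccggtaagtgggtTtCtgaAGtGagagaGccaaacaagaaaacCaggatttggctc
CBF2: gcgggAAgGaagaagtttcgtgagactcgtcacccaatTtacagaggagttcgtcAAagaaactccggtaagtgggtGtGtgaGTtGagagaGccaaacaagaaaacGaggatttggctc
CBF3: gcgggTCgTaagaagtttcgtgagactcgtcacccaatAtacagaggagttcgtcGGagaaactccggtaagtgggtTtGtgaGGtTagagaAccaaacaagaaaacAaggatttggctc
Of all windows of 75 bases in the annotated exons of the 6 genes, 0 had a second exact copy in the nuclear genome, among them 1143 windows in CBF1, 912 in CBF2 and 1317 in CBF3. The same was found for windows of 150 bases, the read length. Reads without errors can therefore be placed on 1 gene, although how reads with mismatches or of several matches were treated is not given in the sources used here. CBF3 overlaps an annotated noncoding RNA, AT4G07385, on the opposite strand at its 3' end. Whether the libraries kept strand information is not stated. That RNA averaged 0.0259 ± 0.0448 FPKM in the mutant and 0.074 ± 0.0771 in the wild type (SD, n = 3).

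The 250 bases before the annotated start were searched on both strands for the letters of sites known from cold and clock studies. Promoters of 4 of the genes are printed because they hold a G-box (CACGTG, a site for bHLH and bZIP factors), CCGCGT (a conserved motif of the CBF2 promoter) or CGCG (the core of sites bound by CAMTA calmodulin-binding activators). All are on the minus strand of the RefSeq TAIR10.1 genome, at chr4:13016236-13016485 (CBF2), chr5:21117861-21118110 (CBF4), chr1:4291018-4291267 (DDF1) and chr1:23368417-23368666 (DDF2). They end at the base before the start, and capitals mark these motifs.
CBF2: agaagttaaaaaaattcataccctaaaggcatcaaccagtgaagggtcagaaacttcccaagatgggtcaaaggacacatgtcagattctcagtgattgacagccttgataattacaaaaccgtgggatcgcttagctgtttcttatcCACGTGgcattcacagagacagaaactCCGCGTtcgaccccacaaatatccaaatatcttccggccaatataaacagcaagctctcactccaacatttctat
CBF4: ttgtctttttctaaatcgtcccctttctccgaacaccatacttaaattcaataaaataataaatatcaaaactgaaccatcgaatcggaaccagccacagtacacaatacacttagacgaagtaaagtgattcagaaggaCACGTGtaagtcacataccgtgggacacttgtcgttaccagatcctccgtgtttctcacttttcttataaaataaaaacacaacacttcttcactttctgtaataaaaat
DDF1: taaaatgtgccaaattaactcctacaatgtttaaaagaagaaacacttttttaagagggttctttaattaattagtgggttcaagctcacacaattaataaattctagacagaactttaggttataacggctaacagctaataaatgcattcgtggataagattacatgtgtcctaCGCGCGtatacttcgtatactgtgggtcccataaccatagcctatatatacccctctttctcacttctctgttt
DDF2: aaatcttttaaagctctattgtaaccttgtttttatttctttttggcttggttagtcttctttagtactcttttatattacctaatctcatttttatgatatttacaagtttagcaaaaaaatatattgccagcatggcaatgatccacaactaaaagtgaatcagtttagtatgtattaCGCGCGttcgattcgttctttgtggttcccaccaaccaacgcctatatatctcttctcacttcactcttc
CBF2 has a G-box that begins 102 bases before the start and CCGCGT 75 bases before it. CBF4 has a G-box at 110 bases. DDF1 and DDF2 each have the letters CGCGCG, beginning 74 and 70 bases before the start, which hold 2 overlapping matches to CGCG. Within this window CGCG was found in 3 of the 6 genes, against 10.1% of 27443 promoters of protein-coding genes, and the G-box in 2 of 6, against 6.49%. The rapid stress response element CGCGTT, which overlaps the CGCG match, was found in CBF2 and DDF2 and in 2.59% of promoters. CCGAC, the core of the C-repeat that CBF proteins themselves bind, was found in 0 of 6, against 12% of promoters. The annotated leader of CBF1 is 434 bases long and that of CBF3 397, so their windows lie far from the coding sequence. When 1000 bases before the start codon were searched, the evening element AAAATATCT was found in CBF1, CBF2, CBF3 and CBF4 and in 7.25% of all genes, while in the 250-base window it was in 0 of 6 and in 2.36%. In the longer window the G-box was found in CBF1, CBF2 and CBF4 and in 15.1% of genes, CGCG in 4 of 6 and in 34.7%, and CGCGTT in 2 of 6 and in 9.71%. The CCA1-binding site AAAAATCT was found in 1 of 6 there, against 22.9%, and in 0 of 6 in the shorter window, against 6.69%. The E-box CANNTG, which includes the G-box, was in 5 of 6, against 95.5%, and in 3 of 6 in the shorter window, against 55.3%. CCGAC was again found in 0 of 6, against 39.4%. These matches describe the letters in the window and do not show that a factor binds there.

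Levels are given as deposited by the authors, in FPKM, that is, reads scaled to exon length and to the depth of the library. The depths implied by the FPKM values were 22125814 to 23081866 reads in cnd1-3 and 23290031 to 30455907 in Col-0. Which reads entered these totals is not given in the sources used here, and a read counted here may be a read pair. Genes were tested when their mean over the 6 libraries was at least 0.5 FPKM, which 17096 genes reached. Of these, limma called 1896 different between the genotypes at an adjusted p under 0.05 (11.1%), 598 higher in cnd1-3 (3.5%) and 1298 lower (7.59%). The lower genes made up 68.5% of the calls as deposited, 54.3% with median-ratio scaling and 50.6% with quantile normalization. In all libraries leaf markers were abundant, and 0 of 4 were called by limma. RBCS1A, a Rubisco small subunit gene, averaged 22960 FPKM in the mutant and 21010 in the wild type, and CAB1, a light-harvesting gene, 26560 and 28310. The 5 root markers, PYK10 and COBL9 among them, summed to at most 0.0432 FPKM in any library. The 4 flower markers, AG and AP3 among them, summed to at most 0.283, and the 4 seed markers, CRA1 and CRU3 among them, were listed at 0. The label says seedling, and root-defining transcripts were at or near 0 in both genotypes. In these bulk samples, fewer cells of a type and less RNA per cell cannot be told apart.

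CBF1, an activator of cold-regulated genes, was scarce in the mutant. It was at 0.626, 0.223 and 0.356 FPKM in cnd1-3 replicates 1, 2 and 3, from 17, 6 and 10 reads. In Col-0 it was at 3.97, 8.4 and 8.15 FPKM, from 147, 269 and 231 reads. The genotypes did not overlap, and the lowest Col-0 library was 6.33 times the highest cnd1-3 library. The means were 0.402 ± 0.206 and 6.84 ± 2.49 FPKM (SD, n = 3), and the mutant minus wild type difference on the scale of log2(FPKM + 0.5) was -2.98. CBF1 passed the minimum level only through Col-0.

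CBF2, the activator nearest to the lower end of the cluster, showed a similar pattern. It was at 1.14, 0.504 and 0.747 FPKM in the cnd1-3 libraries and at 4.03, 8.44 and 7.58 in the Col-0 libraries. The cnd1-3 libraries rested on 25, 11 and 17 reads and the Col-0 libraries on 121, 219 and 174. The highest mutant library was replicate 1 and the lowest wild-type library was also a replicate 1, as for CBF1, and the groups did not overlap. The means were 0.796 ± 0.319 and 6.68 ± 2.34 FPKM, and the log2 difference was -2.44.

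CBF3, the middle gene of the cluster and also a cold activator, was lower by less. It was at 0.903, 1.27 and 1.43 FPKM in the cnd1-3 libraries, from 28, 39 and 46 reads. The Col-0 libraries gave 5.71, 7.24 and 5.77 FPKM, from 242, 265 and 187 reads. Here replicate 1 was the lowest cnd1-3 library, unlike for CBF1 and CBF2, and the groups again did not overlap. The means were 1.2 ± 0.271 and 6.24 ± 0.866 FPKM, with a log2 difference of -1.99.

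**Figure D1:**
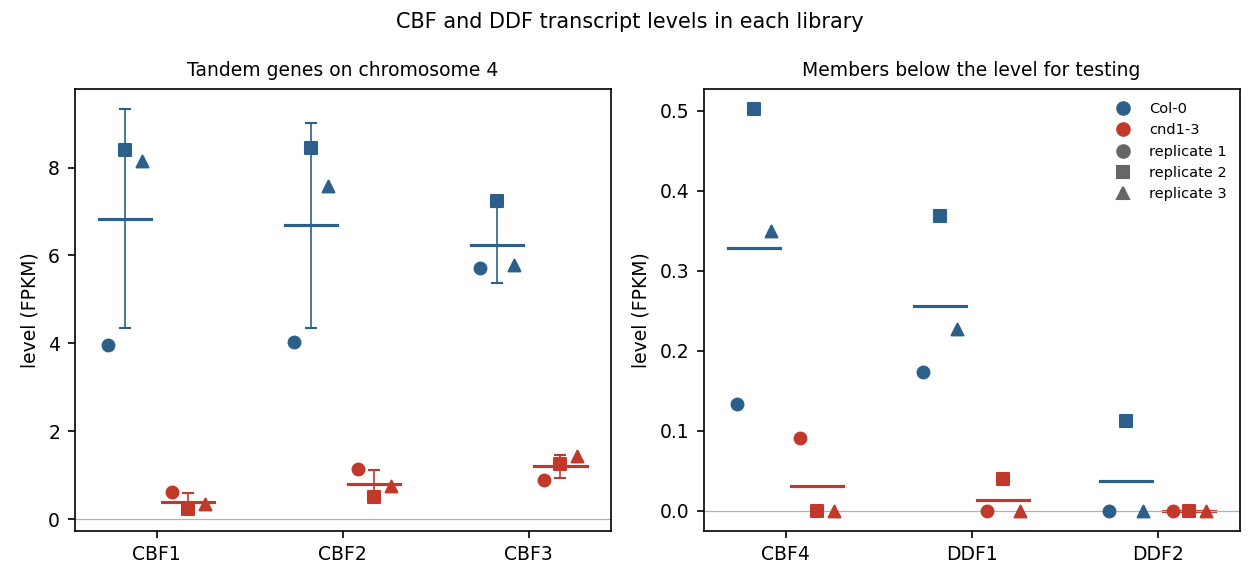
Levels (FPKM, linear axis) of the 6 genes in each library, with Col-0 in blue, cnd1-3 in red and the marker shape giving the replicate; horizontal lines are means, and bars in the left panel are the SD over 3 libraries. CBF1, CBF2 and CBF3 lay between 3.97 and 8.44 FPKM in Col-0 and between 0.223 and 1.43 in cnd1-3.

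CBF4, the drought-related member, was near the limit of detection. It was at 0.0911 FPKM in cnd1-3 replicate 1, from 2 reads, and at 0 in the other two. In Col-0 it was at 0.133, 0.502 and 0.349 FPKM, from 4, 13 and 8 reads. The lowest Col-0 value was 1.46 times the highest cnd1-3 value, a margin of few reads. DDF1, the dwarfing factor, had 1 read in all of cnd1-3, in replicate 2 (0.0398 FPKM), and 6, 11 and 6 reads in Col-0 (0.174, 0.368 and 0.227 FPKM). Its groups did not overlap either. DDF2, the close relative of DDF1, was at 0 in 5 libraries and had 3 reads in Col-0 replicate 2 (0.111 FPKM). With 0 reads in cnd1-3, a level of up to 0.0434 FPKM over the group is allowed (3 reads), and the genotypes could not be told apart for this gene. CBF4, DDF1 and DDF2 lay below the minimum level for testing.

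In total, 3 of the 6 genes reached the minimum level, and 5 of 6 had groups that did not overlap, each with Col-0 above cnd1-3. Among the tested genes that pattern was found in 21.5%. Since the genes were chosen for this contrast, nothing is read from that count. Ranked from the lowest log2 difference of 17096 tested genes, CBF1 was 10, CBF2 29 and CBF3 56.

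Summed reads give the size of the differences without a pseudocount. For CBF1 the cnd1-3 libraries held 33 reads and the Col-0 libraries 647, so its share of the depth was 16.5-fold lower in cnd1-3 (11.7 to 24.2, the exact 95% limits from counting). CBF2 had 53 and 514 reads, which is 8.18-fold (6.16 to 11.1). CBF3 had 113 and 694, which is 5.18-fold (4.24 to 6.38). The interval of CBF1 lay above that of CBF3, while that of CBF2 overlapped CBF3's and lay just under CBF1's. CBF4 had 2 and 25 reads (10.5-fold, 2.63 to 91.8), and DDF1 had 1 and 23 (19.4-fold, 3.15 to 799). The wide intervals of CBF4 and DDF1 span the values of all 3 tandem genes. These intervals cover counting error only. They pool the 3 libraries of each genotype and leave out the spread between libraries, and reads of amplified libraries are not independent molecules. No order of the genes is read from them.

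In Col-0 the 3 tandem genes did not differ beyond the spread between libraries, at means of 6.84, 6.68 and 6.24 FPKM, a length-scaled level. They stood above CBF4 (0.328 ± 0.185 FPKM), DDF1 (0.256 ± 0.101) and DDF2 (0.0372 ± 0.0644) in every Col-0 library, and the ranges of CBF4 and DDF1 overlapped. In cnd1-3 the order was CBF3, CBF2 and CBF1. CBF3 was above CBF1 in 3 of 3 libraries with ranges that did not overlap, while CBF2 overlapped both.

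The shares of the 3 tandem genes in their summed FPKM differed between the genotypes, again as a description of the contrast used for the choice. CBF1 made up 28.9%, 34.9% and 37.9% of the sum in the Col-0 libraries and 23.5%, 11.2% and 14% in the cnd1-3 libraries. CBF3 made up 41.7%, 30.1% and 26.8% in Col-0 and 33.9%, 63.5% and 56.5% in cnd1-3. The groups did not overlap for CBF1 and overlapped for CBF3, through replicate 1 of each genotype. CBF2 averaged 33.2% ± 3.32 in the wild type and 32.5% ± 9.06 in the mutant (SD, n = 3). The ratio of CBF1 to CBF2 lay within 0.984 to 1.08 in the Col-0 libraries and within 0.442 to 0.551 in the cnd1-3 libraries. The ratio of CBF3 to CBF1 was 1.44 in replicate 1 of both genotypes, and otherwise 0.862 and 0.708 in Col-0 and 5.69 and 4.03 in cnd1-3. These cnd1-3 shares rest on 70, 56 and 73 reads per library for the 3 genes together, against 510 to 753 in Col-0.

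**Figure D2:**
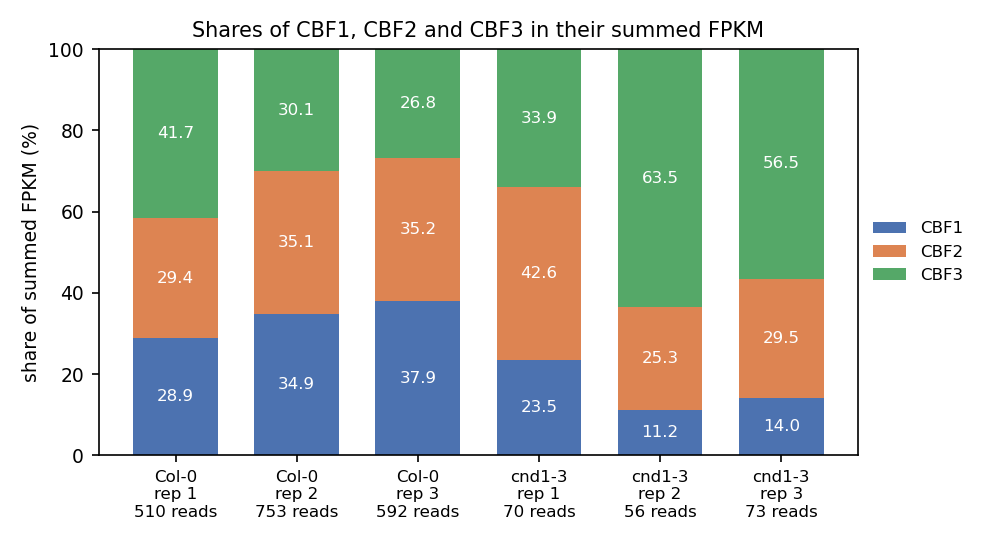
Share (%) of CBF1, CBF2 and CBF3 in their summed FPKM, 1 bar per library with the summed reads under it. The CBF1 share lay between 28.9% and 37.9% in Col-0 and between 11.2% and 23.5% in cnd1-3.

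The spread among the Col-0 libraries was wider for CBF1 and CBF2 than for CBF3. For CBF1 the 95% exact counting interval was 3.35 to 4.66 FPKM in Col-0 replicate 1, 7.43 to 9.47 in replicate 2 and 7.13 to 9.27 in replicate 3. CBF2 had 3.34 to 4.81 FPKM in Col-0 replicate 1 and 6.49 to 8.79 in replicate 3. For CBF3 the 3 Col-0 intervals overlapped, at 5.02 to 6.48, 6.4 to 8.17 and 4.97 to 6.66 FPKM. The coefficient of variation over the Col-0 libraries was 36.4% for CBF1, 35% for CBF2 and 13.9% for CBF3. In cnd1-3 the intervals of the 3 libraries overlapped for each of these genes.

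Other genes followed the same library pattern closely. Likeness was measured as the root mean square difference between 2 genes over the 6 libraries, on the scale of log2(FPKM + 0.5) centred on each gene's mean. The gene nearest to CBF1 was ZAT12 (AT5G59820, RHL41 in the annotation), a zinc finger factor of light and oxidative stress, at 0.0859. ZAT12 was at 2.93, 1.57 and 1.94 FPKM in cnd1-3 and at 12.9, 25.3 and 21.4 in Col-0, so that its highest and lowest library within each genotype were those of CBF1. The mitochondrial dicarboxylate carrier gene DIC2 (0.154) and the RING finger gene RDUF1 (0.155) came next. The gene nearest to CBF2 was HSPRO2, related to a nematode resistance gene of sugar beet, at 0.0497. It was at 19.3, 12.9 and 16 FPKM in cnd1-3 and at 59.5, 115 and 103 in Col-0. ERF5 (0.0992), an activator of the ethylene response factor family, and ERF4 (0.16), a repressor of that family, followed.

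CBF3 had other neighbours in pattern. The nearest were AT2G12190, annotated as a cytochrome P450 (0.189), AT3G57770, annotated as a protein kinase (0.19), and MES18, a methyl esterase gene (0.21). AT2G12190 had 0.715, 0.824 and 0.666 FPKM in the mutant and 5.05, 4.91 and 4.21 in the wild type, with little spread within either genotype. None of the 3 nearest genes of CBF3 was among the 3 nearest of CBF1 or CBF2. The 3 nearest of CBF1 and the 3 nearest of CBF2 had no gene in common either, so at this cut CBF3 is not set apart. With 6 genes each, RDUF1 was near both CBF1 (0.155) and CBF2 (0.173), while CBF3 shared no gene with either. The distance takes in the genotype difference, so it is not independent of the choice of the genes. The opposite strand carries annotated genes that overlap RDUF1, AT3G57770 and MES18, so reads of these may be mixed.

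**Figure D3:**
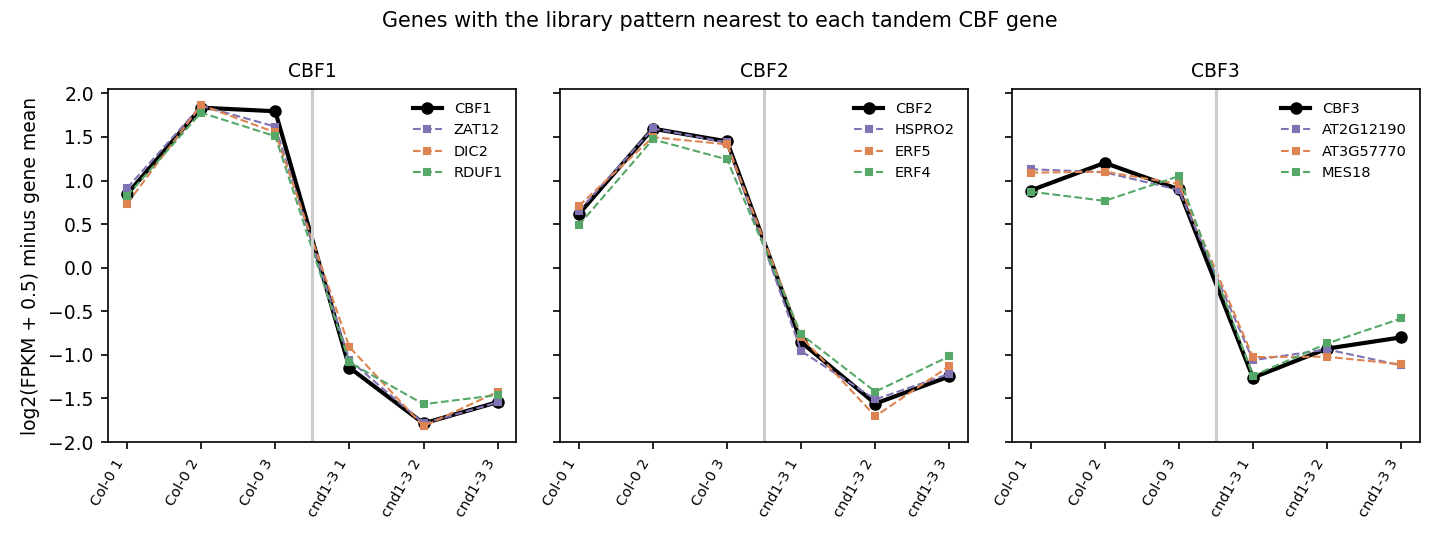
Library patterns as log2(FPKM + 0.5) minus the gene's mean over 6 libraries, for CBF1, CBF2 and CBF3 (black) and the 3 tested genes nearest to each (dashed). For CBF1 and CBF2 replicate 1 is the highest of cnd1-3, and for CBF3 it is the lowest.

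Within 20 kb on either side of the tandem genes the annotation places 15 other genes. Of these 5 were tested and 0 called by limma, with 1 at an unadjusted p under 0.05; with 11.1% of all tested genes called, 5 genes are too few to read anything from that count. ABCB28, an ABC transporter gene next to CBF2, had means of 35.3 ± 0.957 FPKM (cnd1-3) and 31.6 ± 2.41 FPKM (Col-0; log2 fold change 0.16, SE 0.07, limma adjusted p = 0.2). RS40, a splicing factor gene beyond CBF1, averaged 30.5 ± 2.26 and 36.2 ± 3.84 FPKM (-0.24, SE 0.09, adjusted p = 0.133), and passed without Col-0 replicate 3 (0.042). The noncoding RNA AT4G07395 between CBF3 and CBF1 was at 0.102 and 0.141 FPKM on average. Beside CBF4, AT5G51980, annotated as a zinc finger WD40 repeat protein, averaged 9.24 ± 0.276 and 9.83 ± 0.832 FPKM (adjusted p = 0.571), and IMPA-8, an importin gene on its other side, was below the minimum level. The annotated genes next to DDF1, AT1G04963 and AT1G12615, were listed at 0, as was AT1G08587 next to DDF2. LPLAT2, an acyltransferase gene on the other side of DDF2, averaged 6.65 ± 0.297 and 6.96 ± 1.05 FPKM (adjusted p = 0.789).

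**Figure D4:**
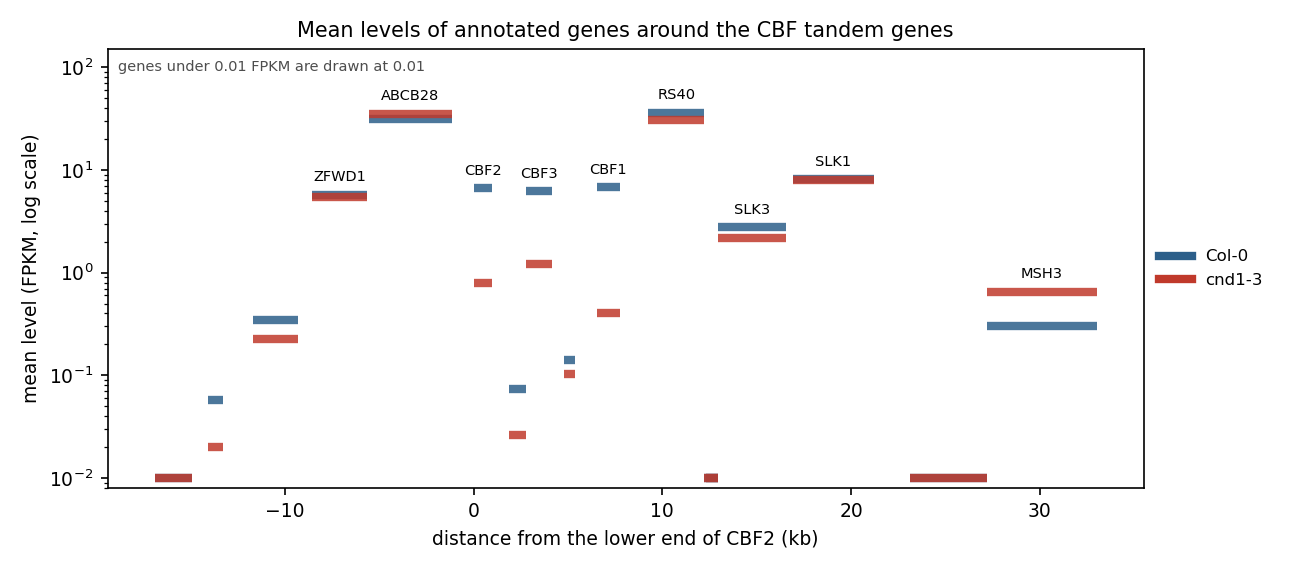
Mean level (FPKM, log axis) of annotated genes around the tandem CBF genes, against the distance from the lower end of CBF2 (kb), with Col-0 in blue and cnd1-3 in red; names are given for genes with a mean of at least 0.5 FPKM in a genotype. CBF2, CBF3 and CBF1 stood at 0.796, 1.2 and 0.402 FPKM in cnd1-3, while ABCB28 and RS40 beside them stood between 30.5 and 36.2 FPKM.

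Genes known to act upstream of the CBF genes were called about as often as all tested genes. This list and those below were chosen with earlier results of these data known, so their shares of called genes are a description. Of 29 tested regulators 1 was called higher in cnd1-3, 2 lower and 26 neither (10.3%, against 11.1% of all tested genes). Regulators at an unadjusted limma p under 0.05 numbered 6 of 29, in both directions. The share of all tested genes at that threshold was not computed, so nothing is read from this number. The median log2 fold change of the list was -0.04, beside -0.05 over all tested genes. With median-ratio scaling it was 0.0176, beside 0.0006 over all tested genes, and with quantile normalization 0.0126, beside 0.0175, so both medians moved with the scaling. The list pools activators, repressors and enzymes that act on ICE1, so its median does not measure the net input to the CBF genes. SOC1, a flowering factor that represses CBF genes, rose from 16.2 ± 1.11 to 24.8 ± 1.61 FPKM (SD, n = 3; log2 fold change 0.60, SE 0.08, limma adjusted p = 0.00302). PIF4, a phytochrome-interacting factor that represses the CBF promoters, fell from 23.3 ± 2.08 to 18 ± 1 FPKM (-0.36, SE 0.08, adjusted p = 0.0308). CAMTA3, a calmodulin-binding activator of CBF2, fell from 7.44 ± 0.221 to 5.91 ± 0.272 FPKM (-0.31, SE 0.08, adjusted p = 0.0415), and it overlaps another gene on the opposite strand. ICE1, the bHLH activator best known for inducing CBF genes, had 14 ± 1.26 FPKM in the mutant against 14.4 ± 0.929 in the wild type (adjusted p = 0.772), and ICE2 at 28.2 ± 2.63 and 28.7 ± 3.67 (0.896); both were named after their values were seen. CAMTA3 lost its call without any one library, with adjusted p from 0.0733 (Col-0 replicate 1) through 0.0762 (Col-0 replicate 3), 0.0897 and 0.0902 (cnd1-3 replicates 3 and 2) and 0.108 (Col-0 replicate 2) to 0.144 (cnd1-3 replicate 1), and also with no minimum level (0.064), quantile normalization (0.0905) or median-ratio scaling (0.0612). PIF4 lost it without replicate 1 or 2 of cnd1-3 (0.105 and 0.0947), without replicate 2 or 3 of Col-0 (0.098 and 0.0576) and without the intensity trend (0.0566). As a result 0 regulators were lower without cnd1-3 replicate 1 or 2 or Col-0 replicate 2 or 3, and 1 was lower without cnd1-3 replicate 3 or Col-0 replicate 1.

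Most cold-regulated targets of the CBF proteins did not pass the test. Of 16 tested targets 4 were called lower in cnd1-3, 0 higher and 12 neither (25%, against 11.1% of all tested genes), and the median log2 fold change was -0.08, beside -0.05 over all tested genes. ERD10, a dehydrin gene, fell from 122 ± 11.7 to 65.7 ± 9.31 FPKM (-0.89, SE 0.11, limma adjusted p = 0.002). DEAR1, a repressor of the DREB family, fell from 2.01 ± 0.387 to 0.731 ± 0.215 FPKM (-1.03, SE 0.18, adjusted p = 0.01). ERD14, another dehydrin gene, fell from 161 ± 8.01 to 104 ± 23.6 FPKM (-0.66, SE 0.14, adjusted p = 0.0195), and ERD7, a gene of early dehydration, from 30.4 ± 5.63 to 20.5 ± 1.75 (-0.55, SE 0.13, adjusted p = 0.0315). At an unadjusted p under 0.05 the targets numbered 7 of 16, in both directions. Among them SUS1, a sucrose synthase gene named after its values were seen, was higher in the mutant (0.58, SE 0.24, limma adjusted p = 0.157). The share of all tested genes at that threshold was not computed, so nothing is read from this count. Among those not called, COR47, a dehydrin gene, averaged 70.4 ± 13 FPKM in the mutant and 93.5 ± 7.02 in the wild type, with groups that did not overlap (-0.42, SE 0.12, adjusted p = 0.06). COR413PM1, a plasma membrane cold protein gene, averaged 151 ± 16.9 and 178 ± 8.3 FPKM (-0.24, SE 0.09, adjusted p = 0.107). The classical targets COR15A, COR15B, RD29A and KIN2 did not pass either, and all 6 of these genes were named after their values were seen. COR15A, which protects the chloroplast in freezing, had 268 ± 59.2 FPKM in the mutant against 286 ± 26.9 in the wild type (limma adjusted p = 0.671), and its neighbour COR15B 397 ± 55 and 341 ± 30.3 (0.233). RD29A averaged 42.2 ± 11.3 and 46.5 ± 2.85 FPKM (0.515). KIN2 averaged 667 ± 62.1 and 670 ± 74 FPKM (0.99), with the close copy KIN1 beside it, so the split of reads between these copies is uncertain. GOLS3, a galactinol synthase gene named after its values were seen, was below the minimum level. It averaged 0.174 ± 0.153 FPKM in the mutant and 0.549 ± 0.115 in the wild type, with groups that did not overlap. LTI30, RAP2.6 and LTP3, the other targets below that level, had overlapping groups. Without cnd1-3 replicate 3 the lower targets numbered 7, and without cnd1-3 replicate 1 or 2 or Col-0 replicate 2 they numbered 2, where ERD14 (adjusted p = 0.0661, 0.0638 and 0.0741) and ERD7 (0.104, 0.0883 and 0.1) did not pass. ERD7 also lost its call with no minimum level (0.06), without the intensity trend (0.0598) and without Col-0 replicate 3 (0.0545), and without Col-0 replicate 3 the targets called higher numbered 1. With 1 library left out the median of the list ran from -0.26 (without cnd1-3 replicate 3) to 0.04 (without cnd1-3 replicate 1).

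Factors that are switched on together with the CBF genes in the first wave of the cold response were lower in many cases. Of 14 tested factors 9 were called lower in cnd1-3, 0 higher and 5 neither (64.3%, against 11.1% of all tested genes), with a median log2 fold change of -0.66. Since earlier results of these data were known when the list was chosen, that share is no evidence of enrichment. ZAT12 fell from 19.9 ± 6.35 to 2.15 ± 0.701 FPKM (-2.93, SE 0.25, limma adjusted p = 0.000488). ERF6, an activator of the ethylene response factor family, fell from 17 ± 6.04 to 1.98 ± 0.588 FPKM (-2.79, SE 0.26, adjusted p = 0.000596). ZAT6, a zinc finger gene, dropped to 0.847 ± 0.307 FPKM in cnd1-3 against 7.44 ± 1.34 in Col-0 (-2.57, SE 0.19, adjusted p = 0.000311). ZAT10, of the same family, dropped to 5.4 ± 2.49 FPKM against 33.3 ± 11.6 (-2.54, SE 0.34, adjusted p = 0.00302). MYB44 and MYB73, MYB factors of the same wave, were named after their values were seen and did not pass. Their log2 fold changes were 0.33 (adjusted p = 0.389) and 0.50 (0.1). With 1 library left out at a time, 7 to 9 factors were lower. RVE1, a clock-related factor below the minimum level, had 0.419 ± 0.0439 FPKM in the mutant against 0.145 ± 0.0366 in the wild type, and was the 1 factor called higher when no minimum was set.

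Related groups were read in the same way. In the DREB2 group, which shares the DNA element with the CBF proteins and serves drought and heat responses, 3 of 5 tested genes were lower and 0 higher (60%, against 11.1% of all tested genes called and 7.59% lower). DREB2A fell from 11.8 ± 5.11 to 2.03 ± 0.279 FPKM (-2.19, SE 0.28, limma adjusted p = 0.0024), and it overlaps another gene on the opposite strand. AT3G57600 fell from 2.48 ± 0.38 to 1.29 ± 0.207 FPKM (-0.73, SE 0.15, adjusted p = 0.0184), and AT2G40350 from 4.27 ± 0.798 to 2.58 ± 0.298 (-0.62, SE 0.15, adjusted p = 0.0299). Without cnd1-3 replicate 1 or 2 or Col-0 replicate 2, DREB2A alone passed, with adjusted p = 0.0614, 0.0592 and 0.0671 for AT3G57600 and 0.0572, 0.0743 and 0.101 for AT2G40350. AT2G40350 also lost its call without cnd1-3 replicate 3 (0.0872) and Col-0 replicate 1 (0.087), after quantile normalization (0.0501), with no minimum level (0.0631) and with limma's voom on recovered reads (0.0544).

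Among gibberellin 2-oxidase genes and DELLA repressors, 2 of 5 tested genes were lower and 0 higher (40%, against 11.1% of all tested genes called and 7.59% lower), and the lower genes numbered 0 to 2 with 1 library left out. GA2OX7, the gibberellin 2-oxidase gene that DDF1 is known to activate, was listed at 0 in all 6 libraries, and was named after its values were seen. RGL1, a DELLA repressor of gibberellin responses, fell from 14.2 ± 0.76 to 10.4 ± 0.683 FPKM (-0.43, SE 0.08, limma adjusted p = 0.0127). RGA, another DELLA gene, fell from 30.6 ± 0.0934 to 25.8 ± 0.672 FPKM (-0.24, SE 0.06, adjusted p = 0.038). RGL1 lost its call without cnd1-3 replicate 2 (0.0511), where 0 genes of this list passed. RGA lost it without any one library (0.138, 0.105 and 0.0772 for cnd1-3 replicates 1, 2 and 3, and 0.0865, 0.0959 and 0.0576 for Col-0 replicates 1, 2 and 3), without the intensity trend (0.0711), and with quantile normalization (0.0613) or median-ratio scaling (0.0926).

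CBF genes are gated by the circadian clock and answer touch and wounding, so genes of both responses were read beside them. Of 8 tested clock genes 0 were called by limma, against 11.1% of all tested genes, a gap that 8 genes cannot resolve. PRR5, a clock repressor named after its values were seen, was the 1 at an unadjusted p under 0.05. It averaged 12.3 ± 1.48 FPKM in the mutant and 19.4 ± 5.46 in the wild type, with groups that did not overlap (-0.61, SE 0.18, limma adjusted p = 0.062). By voom 1 clock gene was called lower, and 1 was also lower without Col-0 replicate 1. TOC1, an evening clock gene, had 83.7 ± 0.639 FPKM in the mutant against 89.1 ± 2.56 in the wild type (limma adjusted p = 0.357), and ELF4, of the evening complex, 129 ± 12.5 and 145 ± 4.16 (0.179). The morning genes CCA1 and LHY, named after their values were seen, were scarce. CCA1 had 0.477 ± 0.14 FPKM in the mutant against 0.377 ± 0.0699 in the wild type, and LHY 0.108 ± 0.0549 against 0.0606 ± 0.0251, so that evening genes were high and morning genes low in both genotypes. Of 11 tested touch and wound genes 8 were lower, 0 higher and 3 neither (72.7%, against 11.1% of all tested genes), with a median log2 fold change of -1.50. This list too was chosen with earlier results of these data known, so its share is a description. CAF1A, a deadenylase gene, fell from 106 ± 23 to 17 ± 5.55 FPKM (-2.63, SE 0.22, adjusted p = 0.00044), and WRKY40, a stress WRKY factor with an overlapping antisense neighbour, from 9.29 ± 5.22 to 0.815 ± 0.423 (-2.77, SE 0.43, adjusted p = 0.00552). JAZ1, a jasmonate repressor gene, fell from 13.8 ± 4.43 to 2.53 ± 1.15 FPKM (-2.26, SE 0.28, adjusted p = 0.00213), and ERF4 from 32.2 ± 10.6 to 6.78 ± 1.62 (-2.13, SE 0.25, adjusted p = 0.00161). TCH4, a touch-induced cell wall gene named after its values were seen, averaged 30.9 ± 21.1 and 32.7 ± 13.4 FPKM (adjusted p = 0.814). The 13 genes of this list summed to 136, 55.6 and 73.9 FPKM in cnd1-3 replicates 1, 2 and 3 and to 196, 341 and 271 in Col-0, so that the highest cnd1-3 library and the lowest Col-0 library were those of CBF1 and CBF2. Such sums are weighted toward the most abundant genes, among them TCH4, which ranged from 15.7 to 55 FPKM in cnd1-3. The part of the touch and wound genes in the low CBF levels was not tested.

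**Figure D5:**
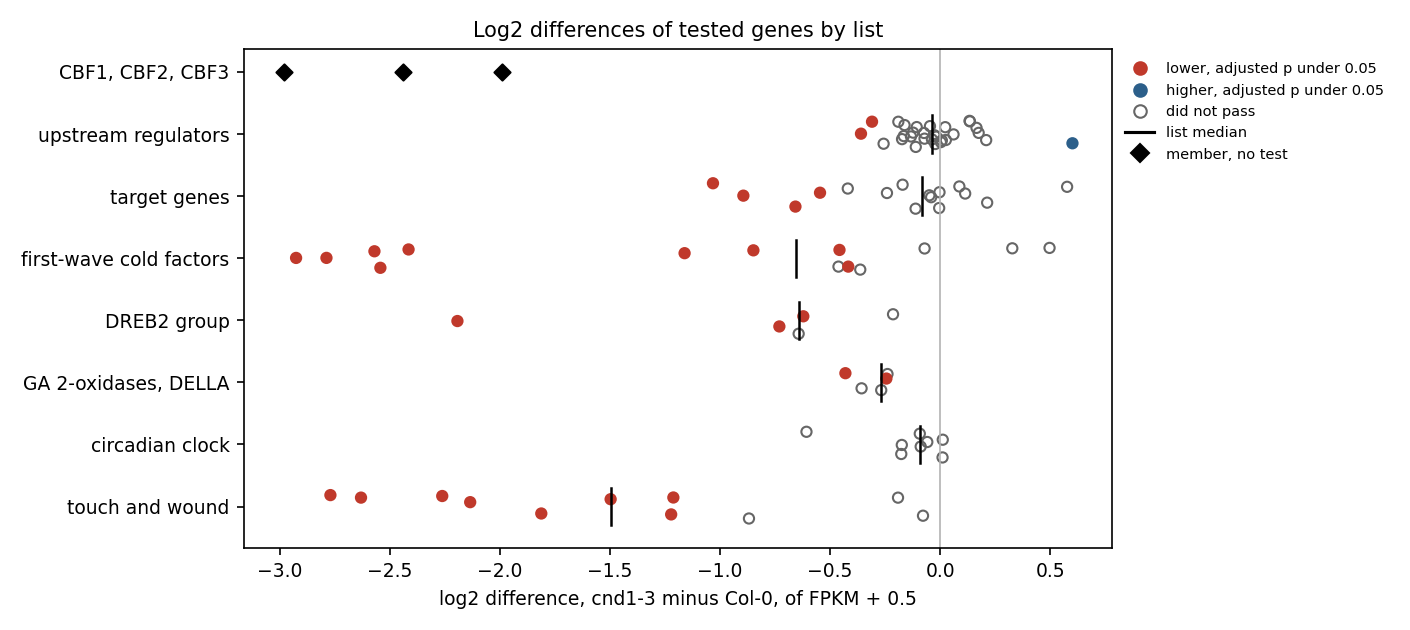
Log2 differences (cnd1-3 minus Col-0, of FPKM + 0.5) of the tested genes of each list, 1 point per gene with vertical jitter, filled where limma's adjusted p was under 0.05, and with a line at the list median. CBF1, CBF2 and CBF3 (black diamonds, shown without a test) lay from -2.98 to -1.99. The upstream regulators, activators and repressors together, had a median of -0.04.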

How the data were processed

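The authors deposited FPKM per gene and sample, and per the submitters' processing notes the TAIR10 build, featureCounts and Subread, HISAT2 and DESeq2 were used, with versions, settings and roles not given in the sources used here. Per the labels' protocols, mRNA was purified with oligo-dT and sequenced as read pairs of 150 bases. Samples were grouped by the genotype in their titles. Gene names, exon lengths and sequences came from RefSeq TAIR10.1, which matched 32548 of 32948 genes. Multiplying FPKM by exon length and scaling to 1 read returned whole numbers (tolerance 0.01) for 99.3% to 99.4% of values above 0 in each library, which gave the read counts and depths in the text.

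Genes with a mean of at least 0.5 FPKM were tested with limma 3.58.1 (R 4.3.3) on log2(FPKM + 0.5), with an intensity trend and Benjamini-Hochberg adjustment over 17096 genes. Fold changes on this scale are drawn toward 0 at low levels. The procedure was tested on simulated data. Their spread between libraries was below that of CBF1 and CBF2 in Col-0, so no error rate for these data follows. Intervals are 95% exact (Clopper-Pearson or conditional binomial), with a floor of 3 reads. Members and lists were chosen with earlier results of these data known. Named from each list were up to 4 called genes with the largest change, or the 2 of highest mean where none was called, the 3 genes nearest in pattern and the annotated neighbours of each member. Alternatives were pseudocounts of 0.1 and 1, no minimum level or 2 FPKM, median-ratio scaling, quantile normalization, no trend, a replicate block, voom on recovered reads and leaving out each library. Python 3.11.15 with Biopython 1.88 handled tables and sequences.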

Additional observations from a re-analysis of the deposited data

How the results depend on the processing

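The 6 genes were chosen for their difference between cnd1-3 and Col-0, so a direction that is kept is no support for it. The log2 differences of the 6 genes kept their direction under the other pseudocounts, scalings, the replicate block and voom, with sizes that depend on the pseudocount. With a pseudocount of 0.1 they were -3.79 for CBF1, -2.91 for CBF2, -2.30 for CBF3, -1.68 for CBF4, -1.64 for DDF1 and -0.36 for DDF2. With a pseudocount of 1 CBF1 was at -2.44, CBF3 at -1.72, CBF4 at -0.36 and DDF1 at -0.31. On voom's log2 scale of depth-scaled reads the differences were -4.07, -3.04, -2.38, -2.99, -3.21 and -0.70 for CBF1, CBF2, CBF3, CBF4, DDF1 and DDF2. Leaving out each library in turn gave -3.31 to -2.81 for CBF1, -2.74 to -2.25 for CBF2, -2.09 to -1.86 for CBF3, -0.80 to -0.47 for CBF4, -0.63 to -0.45 for DDF1 and -0.15 to 0 for DDF2, whose reads come from 1 library.

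The number of called genes was 906 to 1848 when a library was left out, with 260 to 549 higher and 613 to 1299 lower. Higher genes numbered 942 with median-ratio scaling and 982 with quantile normalization. Among the upstream regulators 2 were higher with median-ratio scaling, and 1 was lower with that scaling, with quantile normalization, with no minimum level and without the trend. Without a library, 1 to 1 regulators were higher and 0 to 1 lower, 0 to 1 targets higher and 2 to 7 lower, and 7 to 9 first-wave factors lower. With no minimum level 1 first-wave factor was higher. The cause of these changes was not tested. The replicate numbers do not pair the samples by the labels. Deviations from the genotype means correlated at 0.0324, 0.157 and 0.263 for replicates 1, 2 and 3. Between cnd1-3 and Col-0 replicates of different number they correlated at -0.237 to 0.0846. Whether libraries of the same number shared a batch was not tested. With the replicate block 2879 genes were called, 1020 of them higher, with 2 regulators and 1 target higher. Lower under the block were 5 targets, 3 gibberellin and DELLA genes and 1 clock gene, and RS40 passed (limma adjusted p = 0.0412). At this depth CBF4, DDF1 and DDF2 rest on 0 to 13 reads per library.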
